A study of Homo sapiens with 18 samples.

Results

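The 10 genes described here encode FGF receptors, one FGF ligand and the Sprouty and SPRED feedback inhibitors, and were looked up by symbol (FGFR1, FGFR2, FGFR3, FGFR4, FGFRL1, FGF2, SPRY2, SPRY4, SPRED1 and SPRED2) among the 60642 symbols of the count files. All 10 were found, and 8 of them passed the filter on low counts, among 15298 genes tested. FGFR2 and FGF2 did not. The group was chosen with one value in view, the large drop of FGFRL1 mRNA after PRMT5 depletion. That difference is therefore described without a test. The RNA came from MDA-MB-231, an established human triple-negative breast cancer cell line that carries the glucocorticoid receptor (GR). The cells were transfected with a pool of siRNAs against PRMT5 (siPRMT5), a pool against HP1γ (siHP1γ) or a non-specific siRNA (siNS). Each was then given 100 nM dexamethasone (Dex), a synthetic glucocorticoid, or the same volume of its vehicle ethanol (Eth) for 8 h. With 3 biological replicates of each of the 6 conditions this gave 18 libraries. All of the cells, the siNS Eth controls included, were transfected with an siRNA. All data are from one cell line, depletion with a pool of siRNAs does not separate effects on other transcripts, and mRNA alone was measured.

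Most FGFs are secreted ligands that bind FGF receptors together with heparan sulfate. The receptors' tyrosine kinase then feeds the RAS-ERK cascade through adaptor proteins such as FRS2. ERK activity switches on genes whose products restrain the same cascade, among them the Sprouty (SPRY) proteins. SPRED proteins restrain RAS together with neurofibromin. FGFRL1 resembles the other receptors outside the cell, binds FGFs and heparin, and lacks the kinase domain.

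The promoter windows of 3 members are shown because the results turn on these genes. FGFRL1 had the largest differences between conditions of the 8 members tested, and SPRY2 and SPRY4 were both higher in siPRMT5 than in siNS cells with Eth. Each window runs from 250 bases before to 50 bases after a transcription start of RefSeq on GRCh38.p14, 5′ to 3′ on the gene's strand. The capitals mark matches, on either strand, to a GC box (GGGCGG) and to the ETS motif CCGGAA. The windows lie at chr4:1012214-1012513 on the plus strand (FGFRL1), chr13:80341077-80341376 on the minus strand (SPRY2) and chr5:142324198-142324497 on the minus strand (SPRY4).
FGFRL1: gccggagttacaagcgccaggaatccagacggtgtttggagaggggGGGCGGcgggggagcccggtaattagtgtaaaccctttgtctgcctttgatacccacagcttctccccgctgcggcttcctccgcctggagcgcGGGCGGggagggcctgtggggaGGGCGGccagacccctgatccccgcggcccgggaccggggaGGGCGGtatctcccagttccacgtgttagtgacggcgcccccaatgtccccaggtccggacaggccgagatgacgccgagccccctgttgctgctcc
SPRY2: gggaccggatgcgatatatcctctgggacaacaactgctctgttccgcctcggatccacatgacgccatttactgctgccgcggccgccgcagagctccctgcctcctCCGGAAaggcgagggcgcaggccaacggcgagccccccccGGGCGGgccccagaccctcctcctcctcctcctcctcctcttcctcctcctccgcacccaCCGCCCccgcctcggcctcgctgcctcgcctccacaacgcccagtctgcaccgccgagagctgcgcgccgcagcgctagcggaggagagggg
SPRY4: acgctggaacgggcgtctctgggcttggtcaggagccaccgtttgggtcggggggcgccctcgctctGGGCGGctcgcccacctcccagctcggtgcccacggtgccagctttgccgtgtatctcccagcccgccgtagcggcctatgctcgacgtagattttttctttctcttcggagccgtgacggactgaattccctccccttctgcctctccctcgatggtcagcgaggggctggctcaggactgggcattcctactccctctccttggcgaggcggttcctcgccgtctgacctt

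The FGFRL1 window is 68.3% G and C and holds 4 GC boxes, the SPRY2 window 71.0% and 2, and the SPRY4 window 65.0% and 1, beside a median of 58.7% G and C over 35116 windows of the same length. The RefSeq start of FGFRL1 lies 2528 bases inside the gene as GENCODE 44 draws it, and the window's last 28 bases are coding. That of SPRY4 lies 2208 bases inside its gene. For the 9 members with an entry, 17 windows were given. FGFR1 had no entry. The full palindrome to which GR binds, searched as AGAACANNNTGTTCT, was in 0 of these 17 windows and in 0.00285% of all windows. One arm of it, TGTTCT, which the palindrome contains, was in 2 windows, both of SPRY2 and neither of them printed above, and in 14.8% of all windows. GC boxes were in 11 of the 17 windows, with each of the 9 members holding at least 1, and in 45.0% of all windows. The AP-1 motif TGANTCA was in 1 window, of SPRED2 (7.71% of all windows), and CCGGAA in 1, the SPRY2 window shown (17.2%). These matches describe letters in these windows only.

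The libraries held 8682992 to 12472381 counts, so that a level of 3 counts corresponds to 0.236 to 0.352 CPM (counts after scaling every library to the same total). No replicate pair agreed within sampling noise (chi-square over genes divided by its degrees of freedom, 2.10 to 12.3). Of the siRNA targets, PRMT5 mRNA was left at 2.96% of siNS with Eth and 4.42% with Dex in siPRMT5 cells. CBX3, which encodes HP1γ, was left at 3.89% and 6.0% in siHP1γ cells. In siHP1γ cells, PRMT5 mRNA was itself at 83.9% of siNS with Eth and 78.7% with Dex. The markers of this mesenchymal line were present, with VIM at 5444 to 9592 CPM and NR3C1, which encodes GR, at 116 to 186 CPM. ESR1, PGR, CDH1 and the leukocyte marker PTPRC were between 0 and 0.221 CPM in every library. The epithelial marker EPCAM was at 8.57 to 14.0 CPM and the endothelial marker PECAM1 at 1.104 to 8.15 CPM. Of these 10 markers AXL stood apart in PRMT5-depleted cells, at 182 to 226 CPM in the 6 siPRMT5 libraries and 626 to 1003 CPM in the other 12. PECAM1 was at 2.70 to 8.15 CPM in the former and at up to 4.70 CPM in the latter. NR3C1 was at 145 to 186 CPM in the former and at 116 to 160 CPM in the latter, which overlap. The ranges also overlapped for VIM (7194 to 9592 and 5444 to 8749 CPM) and CD44 (506 to 742 and 518.5 to 857 CPM). The part of these differences in the results of siPRMT5 cells was not tested. Levels below are CPM after TMM scaling of library sizes, as mean ± SD with n = 3, and fold changes, 95% confidence intervals (CI) and adjusted p-values are from one edgeR quasi-likelihood fit of all 18 libraries. A lower level in such bulk RNA may stand for less RNA per cell or for fewer cells with the RNA, and these cannot be told apart. A difference between depleted and siNS cells was called at an adjusted p-value under 0.05, and a Dex response at an adjusted p-value under 0.01 with a fold change of at least 1.5. Where the 3 libraries of one condition do not overlap the 3 of another, the exact two-sided permutation test gives p = 0.1, the smallest it can give. FGFRL1 in siPRMT5 cells against other cells is left out of this test.

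FGFRL1 mRNA was far below its siNS level in every siPRMT5 library, at 11.4% to 13.1% on average, whether or not Dex was given. FGFRL1 (ENSG00000127418) is a plus-strand gene of chromosome 4 (hg38, 1009936 to 1026898) that overlaps no other gene of GENCODE 44. In siNS Eth, replicates 1 to 3 were at 61.5, 79.6 and 65.2 CPM, and in siNS Dex at 78.4, 80.4 and 87.5 CPM. In siPRMT5 Eth the replicates were at 8.05, 11.3 and 7.90 CPM, and in siPRMT5 Dex at 8.699, 8.22 and 11.5 CPM. The highest siPRMT5 library was thus well below the lowest library of any other condition. The level was 68.7 ± 9.58 CPM (SD, n = 3) in siNS Eth and 9.07 ± 1.91 CPM in siPRMT5 Eth, a log2 fold change of -2.93 that leaves 13.1%. With Dex it was 82.1 ± 4.81 CPM in siNS and 9.49 ± 1.80 CPM in siPRMT5 cells, a log2 fold change of -3.13 that leaves 11.4%. These differences chose the group, and no test or confidence interval of them is given in the text.

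Depletion of HP1γ, by contrast, left FGFRL1 within or above its siNS range in 5 of 6 libraries. The siHP1γ Eth replicates were at 86.7, 83.0 and 83.1 CPM, and the siHP1γ Dex replicates at 50.2, 79.5 and 84.1 CPM. All of the siHP1γ Eth libraries were above all of the siNS Eth libraries, while replicate 1 of siHP1γ Dex stood below the rest of the siHP1γ and siNS libraries. With Eth the log2 fold change of siHP1γ against siNS was 0.29 (95% CI 0.02 to 0.57, adjusted p = 0.101), which did not pass. It depended on single libraries, with an adjusted p of 0.0204 without siHP1γ Dex replicate 1 and 0.0404 without siNS Eth replicate 2. With Dex the log2 fold change was -0.21 (95% CI -0.48 to 0.07, adjusted p = 0.276), and it was -0.00 without siHP1γ Dex replicate 1. The Dex response of FGFRL1 did not pass in siNS (log2 fold change 0.26, adjusted p = 0.271), siHP1γ (-0.25, adjusted p = 0.346, and -0.04 without siHP1γ Dex replicate 1) or siPRMT5 cells (0.06, adjusted p = 0.905). In order of the mean, the conditions ran from siHP1γ Eth (84.3 ± 2.108 CPM) over siNS Dex (82.1 ± 4.81), siHP1γ Dex (71.3 ± 18.4) and siNS Eth (68.7 ± 9.58) to siPRMT5 Dex (9.49 ± 1.80) and siPRMT5 Eth (9.07 ± 1.91). Among the neighbours in this order, siNS Eth and siPRMT5 Dex were the one pair whose libraries did not overlap.

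The genes whose log2 CPM followed that of FGFRL1 most closely over the 18 libraries, of 11410 candidates that averaged 5 CPM or more, were AC020904.2 (Pearson's r = 0.995), RIC8A (0.993) and CYB5R3 (0.992). RIC8A encodes a chaperone of G protein alpha subunits, and CYB5R3 encodes a cytochrome b5 reductase. RIC8A had means of 94.0 and 95.5 CPM in the siPRMT5 conditions and of 209.8 to 230.2 CPM in the others. CYB5R3 had means of 76.5 CPM in both siPRMT5 conditions and of 435 to 489.6 CPM elsewhere, and AC020904.2 had 13.7 and 14.0 CPM against 34.9 to 39.3 CPM. The points of these correlations share their libraries, and the 6 siPRMT5 libraries stand apart in all 4 genes, so the values describe a shared step between conditions and carry no test.

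**Figure D1:**
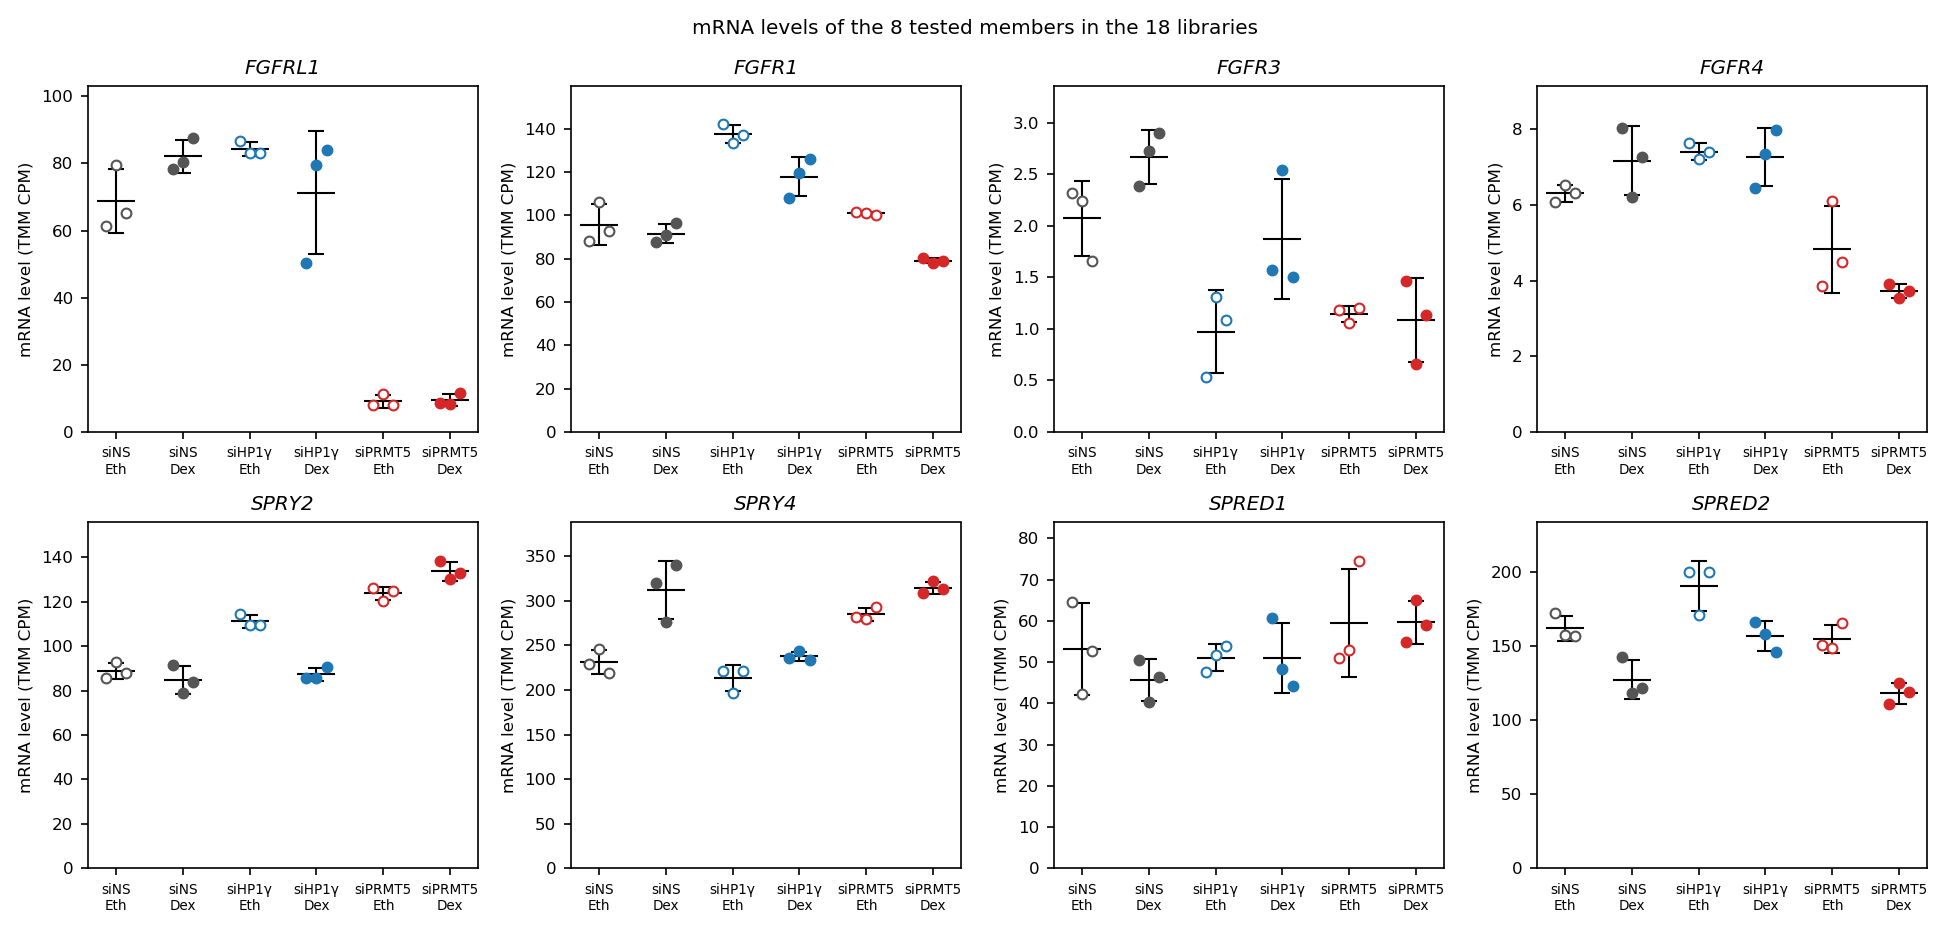
mRNA level in CPM (TMM-scaled, linear axes from 0) of the 8 tested genes in each of the 18 libraries, with open points for Eth, filled points for Dex, grey for siNS, blue for siHP1γ and red for siPRMT5; bars are the mean ± SD of 3 replicates. FGFRL1 lies between 7.90 and 11.5 CPM in the 6 siPRMT5 libraries and between 50.2 and 87.5 CPM in the other 12, and SPRY2 is highest in the siPRMT5 libraries.

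FGFR1, a receptor with tyrosine kinase activity, was higher after HP1γ depletion with and without Dex. FGFR1 (ENSG00000077782) is a minus-strand gene of chromosome 8 (38400215 to 38468834). It overlaps 4 annotated genes, LETM2 and RPS20P22 among them, which makes its count uncertain in part. Its replicates were at 88.0, 106 and 93.0 CPM in siNS Eth and at 142, 134 and 137 CPM in siHP1γ Eth. With Dex they were at 87.8, 90.8 and 96.3 CPM in siNS and at 108, 119 and 126 CPM in siHP1γ. With each treatment, all of the siHP1γ libraries were above all of the siNS libraries. FGFR1 mRNA rose after HP1γ depletion by a log2 fold change of 0.52 with Eth (standard error 0.0735, adjusted p = 5.99e-06) and of 0.36 with Dex (standard error 0.0735, adjusted p = 0.000639).

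In siPRMT5 cells FGFR1 was lower with Dex than with Eth. The siPRMT5 replicates were at 101, 101 and 100.2 CPM with Eth and at 80.4, 78.1 and 79.0 CPM with Dex, with no overlap and with the smallest spread of any conditions of this gene. The log2 fold change of -0.35 (95% CI -0.51 to -0.20, adjusted p = 0.00123) was under the fold limit of 1.5. In siNS cells the Dex response of FGFR1 was -0.06 (95% CI -0.22 to 0.09, adjusted p = 0.665), and in siHP1γ cells -0.22 (adjusted p = 0.0734, and 0.0428 without siHP1γ Dex replicate 3). Against siNS, FGFR1 in siPRMT5 cells differed by 0.08 with Eth (95% CI -0.08 to 0.23, adjusted p = 0.451) and fell by 0.21 on the log2 scale with Dex (adjusted p = 0.0249). The latter call was lost when any of siNS Dex replicates 2 and 3 or siPRMT5 Dex replicates 1, 2 and 3 was left out, with an adjusted p of up to 0.131 without siNS Dex replicate 3.

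FGFR3 and FGFR4, both receptors with a kinase domain, were measured at few counts and were lower after PRMT5 depletion with Dex. FGFR3 (ENSG00000068078, chromosome 4 from 1793293 to 1808872, plus strand) had 5 to 32 counts per library, and 3 symbols of the files are its pseudogenes, so its count is uncertain. Its replicates were at 2.32, 2.24 and 1.66 CPM in siNS Eth, 0.530, 1.31 and 1.08 CPM in siHP1γ Eth, and 1.18, 1.06 and 1.20 CPM in siPRMT5 Eth. With Dex they were at 2.38, 2.72 and 2.90 CPM in siNS, 1.57, 2.54 and 1.504 CPM in siHP1γ, and 1.47, 0.658 and 1.13 CPM in siPRMT5. The siPRMT5 libraries were below the siNS libraries with either treatment, and the siHP1γ libraries were below them with Eth but overlapped them with Dex. FGFR3 mRNA fell by 1.32 on the log2 scale in siPRMT5 Dex against siNS Dex (95% CI -1.94 to -0.69, adjusted p = 0.000971). With Eth it fell by 0.84 in siPRMT5 (adjusted p = 0.0404) and by 1.054 in siHP1γ cells (adjusted p = 0.0157), and both of these calls depended on single libraries. The siPRMT5 call was lost without siNS Eth replicate 1 or 2 or any of the siPRMT5 Eth replicates (adjusted p from 0.0764 to 0.109). The siHP1γ call was lost without siNS Eth replicate 1 (adjusted p = 0.0555) or siHP1γ Eth replicate 1 (adjusted p = 0.0877). The Dex response of FGFR3 did not pass in siNS (log2 fold change 0.36, adjusted p = 0.465), siHP1γ (0.90, adjusted p = 0.121) or siPRMT5 cells (-0.11, adjusted p = 0.89).

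FGFR4 (ENSG00000160867, chromosome 5 from 177086905 to 177098144, plus strand) had 33 to 91 counts per library. The replicates were at 8.04, 6.21 and 7.25 CPM in siNS Dex and at 3.91, 3.53 and 3.73 CPM in siPRMT5 Dex, so that the 2 conditions did not overlap. FGFR4 mRNA fell by 0.95 on the log2 scale (95% CI -1.30 to -0.61, adjusted p = 4.82e-05). With Eth, the siPRMT5 replicates at 3.86, 6.10 and 4.50 CPM overlapped the siNS replicates at 6.07, 6.52 and 6.32 CPM through replicate 2. The log2 fold change was then -0.40 (95% CI -0.74 to -0.05, adjusted p = 0.0618), and -0.59 without siPRMT5 Eth replicate 2 (adjusted p = 0.0117). FGFR4 in siHP1γ cells lay between 6.45 and 7.99 CPM, with log2 fold changes of 0.23 with Eth (95% CI -0.09 to 0.55) and 0.00 with Dex (95% CI -0.30 to 0.31) that did not pass. Its Dex responses of 0.19 in siNS, -0.03 in siHP1γ and -0.36 in siPRMT5 cells did not pass either (adjusted p = 0.508, 0.939 and 0.204).

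FGFR2, another receptor with a kinase domain, and FGF2, a widely expressed FGF ligand, were at the limit of what these libraries can show. FGFR2 (chromosome 10 from 121478332 to 121598458) had 3 counts in all, 1 each in siHP1γ Dex replicates 2 and 3 and in siPRMT5 Eth replicate 3. FGF2 (chromosome 4 from 122826682 to 122898236, overlapping NUDT6) had 1 count, in siNS Dex replicate 3. With so few counts neither gene can be compared between conditions, and the overlap with NUDT6 makes the count of FGF2 uncertain. Whether reads of FGF2 were lost to that overlap was not tested. A library without a count allows a level of up to its 3-count limit, which was between 0.236 and 0.352 CPM over the 18 libraries and covers counting error only.

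SPRY2, a Sprouty protein that restrains signalling from receptor tyrosine kinases to ERK, was higher in all siPRMT5 libraries than in any other library. SPRY2 (ENSG00000136158) is a minus-strand gene of chromosome 13 (80335976 to 80341126) with no overlapping gene. Its replicates were at 85.7, 92.9 and 87.9 CPM in siNS Eth, 114, 109 and 109.7 CPM in siHP1γ Eth, and 126, 120.5 and 125 CPM in siPRMT5 Eth. With Dex they were at 91.3, 78.9 and 83.9 CPM in siNS, 85.7, 85.6 and 90.6 CPM in siHP1γ, and 139, 130.1 and 133 CPM in siPRMT5. The siHP1γ libraries were thus between the siNS and siPRMT5 libraries with Eth, and within the siNS range with Dex. SPRY2 mRNA rose after PRMT5 depletion by a log2 fold change of 0.48 with Eth (standard error 0.0673, adjusted p = 2.44e-06) and of 0.66 with Dex (standard error 0.0668, adjusted p = 1.34e-08). After HP1γ depletion it rose by 0.32 with Eth (standard error 0.0673, adjusted p = 0.000608), while with Dex the difference was 0.04 (95% CI -0.10 to 0.18, adjusted p = 0.699). Dex against Eth gave -0.35 in siHP1γ cells (95% CI -0.49 to -0.21, adjusted p = 0.00113), under the fold limit, -0.07 in siNS cells (95% CI -0.21 to 0.07) and 0.11 in siPRMT5 cells (95% CI -0.02 to 0.25).

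SPRY4, another Sprouty protein, had its 5 highest libraries in siNS cells with Dex and in siPRMT5 cells with Dex. SPRY4 (ENSG00000187678) is a minus-strand gene of chromosome 5 (142310427 to 142326455) and overlaps the antisense gene SPRY4-AS1. The strand setting of the counting is not given in the sources used here, so reads of both may not be told apart. Its replicates were at 229, 246 and 219.6 CPM in siNS Eth and at 320.5, 276 and 340.3 CPM in siNS Dex. In siHP1γ cells they were at 221, 196 and 221 CPM with Eth and at 236, 244 and 233 CPM with Dex, and in siPRMT5 cells at 282, 279.8 and 293 CPM and at 309, 322 and 314 CPM. The Dex libraries were above the Eth libraries in each of the 3 kinds of cells. In siNS cells the response was 1.35-fold (log2 fold change 0.43, 95% CI 0.28 to 0.58, adjusted p = 0.000117), which is under the fold limit of 1.5, so it was not called. The log2 fold change was 0.16 in siHP1γ cells (95% CI 0.01 to 0.31, adjusted p = 0.24) and 0.14 in siPRMT5 cells (95% CI -0.00 to 0.29, adjusted p = 0.199). Against siNS Dex, SPRY4 mRNA fell by 0.40 on the log2 scale in siHP1γ Dex (standard error 0.0716, adjusted p = 0.000188), and siPRMT5 Dex differed by 0.01 (95% CI -0.14 to 0.16, adjusted p = 0.922). With Eth the order was another one: SPRY4 rose by 0.30 in siPRMT5 cells (standard error 0.0720, adjusted p = 0.00148), and the siHP1γ difference of -0.12 did not pass (adjusted p = 0.216).

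SPRED2, which acts on RAS together with neurofibromin, was lower with Dex than with Eth in all 3 kinds of cells and higher after HP1γ depletion. SPRED2 (ENSG00000198369) is a minus-strand gene of chromosome 2 (65310851 to 65432637) and overlaps 1 annotated gene. Replicates 1 to 3 were at 172, 157 and 157 CPM in siNS Eth and at 143, 118 and 121 CPM in siNS Dex. In siHP1γ cells they were at 200.1, 171 and 200.1 CPM with Eth and at 166, 158 and 146 CPM with Dex, and in siPRMT5 cells at 150.3, 149 and 166 CPM and at 111, 125 and 119 CPM. No Dex library reached the Eth libraries of the same siRNA. The Dex response was -0.35 in siNS (adjusted p = 0.00635), -0.28 in siHP1γ (adjusted p = 0.0381) and -0.39 in siPRMT5 cells (adjusted p = 0.00115) on the log2 scale, each under the fold limit. In siHP1γ cells its adjusted p was over 0.05 when any of siHP1γ Eth replicates 1 and 3, siHP1γ Dex replicates 2 and 3, siNS Eth replicate 3 or siNS Dex replicate 3 was left out (0.0528 to 0.202), and reached 0.05 without siPRMT5 Dex replicate 3.

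Against siNS cells, SPRED2 mRNA rose after HP1γ depletion by a log2 fold change of 0.30 with Dex (adjusted p = 0.00936) and of 0.23 with Eth (adjusted p = 0.0299), where 1 siHP1γ library at 171 CPM lay within the siNS range. The call with Dex was lost without siNS Dex replicate 2 (adjusted p = 0.0737) or 3 (0.0531). The call with Eth was lost without siNS Eth replicate 2 or 3 or siHP1γ Eth replicate 1 or 3 (0.0963 to 0.142). After PRMT5 depletion SPRED2 differed by -0.06 with Eth (95% CI -0.23 to 0.11) and -0.11 with Dex (95% CI -0.28 to 0.06), neither of which passed.

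SPRED1, a relative of SPRED2 with the same role, ranged from 40.2 to 74.5 CPM over the 18 libraries with a median of 52.2 CPM. SPRED1 (ENSG00000166068) is a plus-strand gene of chromosome 15 (38252836 to 38357249) with no overlapping gene. The replicates of siNS Eth alone spanned 42.3 to 64.6 CPM. Among its comparisons with siNS and its Dex responses, 1 passed, with siPRMT5 Dex (59.6 ± 5.21 CPM) above siNS Dex (45.7 ± 5.16 CPM), a log2 fold change of 0.38 (95% CI 0.09 to 0.67, adjusted p = 0.0312). This call was lost without siNS Dex replicate 2 (adjusted p = 0.134), siNS Dex replicate 3 (0.0592) or siPRMT5 Dex replicate 2 (0.115).

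**Figure D2:**
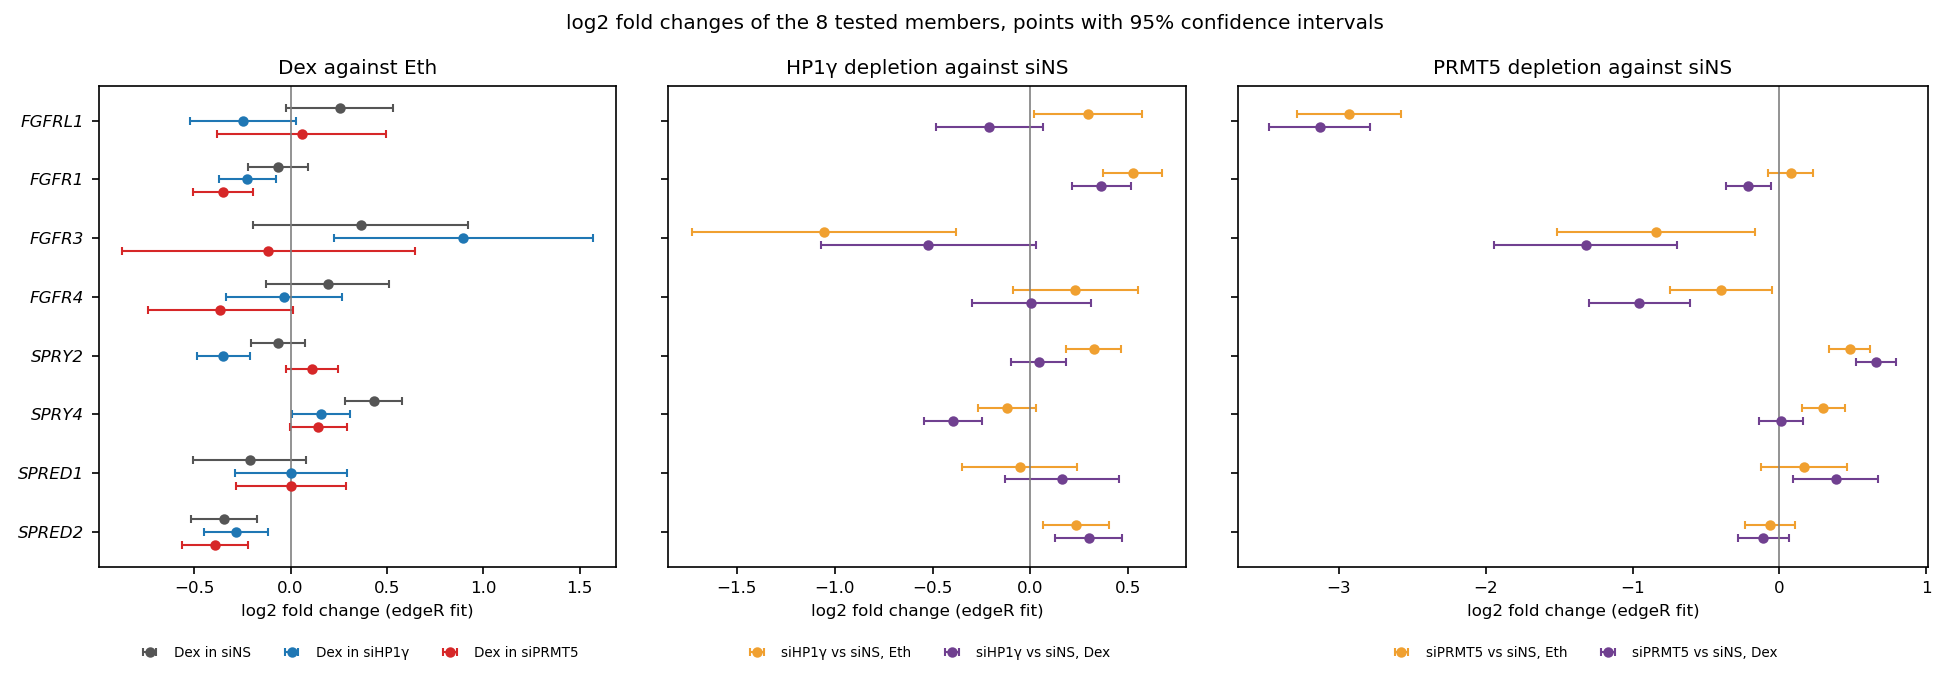
log2 fold changes of the 8 tested genes from the edgeR fit, with points for the estimate and bars for the 95% confidence interval; the left panel gives Dex against Eth in each kind of cell, the middle one HP1γ depletion and the right one PRMT5 depletion against siNS, and each panel has its own scale. FGFRL1 is at -2.93 and -3.13 in the right panel, while the Dex responses of SPRED2 lie between -0.39 and -0.28 in all 3 kinds of cells. The FGFRL1 bars in the right panel are not to be read as a test, because these differences chose the group.

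Counted over the group, Dex called 0 of the 8 members in siNS cells, where 2.71% of all genes tested were called. It called 0 in siHP1γ cells (1.67% of all genes) and 0 in siPRMT5 cells (5.44%), and DESeq2 called 0 in each as well. At an unadjusted p under 0.05, 2 members were past the limit in siNS (22.4% of all genes), 5 in siHP1γ (2753 of the 15298 genes, 18%) and 2 in siPRMT5 cells (26.7%). At an adjusted p under 0.05 without a fold limit there were 2 in siNS cells (SPRY4 and SPRED2, beside 9.16% of all genes), 2 in siHP1γ cells (SPRY2 and SPRED2, 5.55%) and 2 in siPRMT5 cells (FGFR1 and SPRED2, 16.0%). The Dex and Eth libraries of siNS cells did not overlap for 3 members (FGFR3, SPRY4 and SPRED2), beside 27.9% of all genes, and for 5 members without siNS Eth replicate 2 or without siNS Dex replicate 1.

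HP1γ depletion called 3 of the 8 members with Dex (FGFR1 and SPRED2 higher, SPRY4 lower), against 24.0% of all genes, and the same 3 were those whose libraries did not overlap (36.9% of all genes). With siNS Dex replicate 1 left out, 5 did not overlap. With Eth, 4 members were called (FGFR1, SPRY2 and SPRED2 higher, FGFR3 lower), against 31.8% of all genes. Without siHP1γ Eth replicate 1 there were 2. The libraries of 5 members did not overlap (FGFR1, FGFR3, FGFR4, FGFRL1 and SPRY2), against 45.5% of all genes. These counts of 8 were not tested against the shares over all genes, and nothing particular to the members is read from them. FGFRL1 aside, PRMT5 depletion called 5 of 7 members with Dex (SPRY2 and SPRED1 higher, FGFR1, FGFR3 and FGFR4 lower), beside 42.4% of all genes, and 3 without siNS Dex replicate 2, siNS Dex replicate 3 or siPRMT5 Dex replicate 2. With Eth it called 3 of 7 (SPRY2 and SPRY4 higher, FGFR3 lower), beside 42.1% of all genes. The comparisons that involve siNS Dex, or siNS Eth, share these libraries.

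Whether the Dex response itself differed between depleted and siNS cells was tested as an interaction. In the edgeR fit 0 of 8 members were called for siHP1γ (0.399% of all genes) and 0 of 8 for siPRMT5 (3.80%), and DESeq2 called 0 in both. At an unadjusted p under 0.05 there were 3 of 8 in each, beside 17.2% of all genes for siHP1γ and 19.0% for siPRMT5. For siHP1γ these were FGFRL1 (log2 difference -0.50, adjusted p = 0.179, and -0.29 without siHP1γ Dex replicate 1), SPRY2 (-0.28, adjusted p = 0.141) and SPRY4 (-0.27, adjusted p = 0.17). For siPRMT5 they were FGFR1 (-0.29, adjusted p = 0.129), FGFR4 (-0.56, adjusted p = 0.199) and SPRY4 (-0.29, adjusted p = 0.109). Leaving out 1 library brought single members past the limit for siPRMT5, namely FGFR1 without siNS Eth replicate 2 (adjusted p = 0.044) and SPRY4 without siNS Dex replicate 2 (adjusted p = 0.0383). The 95% CI of the SPRY4 terms ran from -0.48 to -0.07 for siHP1γ and from -0.50 to -0.08 for siPRMT5.

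The depletions were also compared with each other directly, a comparison added after the values had been seen. Without FGFRL1, 6 of 7 members differed between siPRMT5 and siHP1γ cells with Dex (49.9% of all genes were called) and 4 of 7 with Eth (48.4%). SPRY4 was higher in siPRMT5 cells, by a log2 fold change of 0.41 with Dex (adjusted p = 3.96e-05) and of 0.42 with Eth (adjusted p = 3.01e-05). SPRY2 was higher by 0.62 with Dex (adjusted p = 2.6e-08), and its difference of 0.16 with Eth was at the limit (adjusted p = 0.0537, and 0.0317 to 0.0471 when siNS Eth replicate 3, siNS Dex replicate 1 or 2, siHP1γ Dex replicate 1 or siPRMT5 Eth replicate 2 was left out). FGFR1, FGFR4 and SPRED2 were lower in siPRMT5 cells. With Dex and Eth, their log2 fold changes were -0.57 and -0.45 for FGFR1, -0.96 and -0.63 for FGFR4, and -0.41 and -0.30 for SPRED2, all with an adjusted p of 0.00398 or less. The FGFR3 call with Dex (-0.80, adjusted p = 0.042) was lost in 6 of the 18 fits that left out 1 library, with an adjusted p of up to 0.255 without siPRMT5 Dex replicate 2 and 0.23 without siHP1γ Dex replicate 2, and in the others not above 0.0682 (siNS Dex replicate 2, siPRMT5 Eth replicates 1 and 2, siPRMT5 Dex replicate 3). SPRED1 with Dex, at 0.22, passed without siHP1γ Dex replicate 1 alone (adjusted p = 0.0308). FGFRL1 was left at 13.2% of siHP1γ with Dex and 10.7% with Eth, given here as values only.

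Around these members, 90 other genes of the pathway were listed by role, of which 71 were tested. Dex called 5 of the 71 in siNS cells (7.04%, beside 2.71% of all genes). The shares of the list in this and the other comparisons were not tested against those over all genes. Among the ligands FGF5 fell, from 81.8 ± 6.81 to 34.9 ± 1.89 CPM (log2 fold change -1.23, adjusted p = 4.62e-09). The heparan sulfate carrier SDC3 rose by 0.83 (adjusted p = 3.95e-08), the kinase MAP2K1, which phosphorylates ERK, rose by 0.66 (adjusted p = 7.84e-08), and PHLDA1, a gene switched on by ERK, fell by 1.02 on the log2 scale (adjusted p = 3.06e-11). The fifth gene was GPC1, also a heparan sulfate carrier. The response of FGF5 differed in siHP1γ cells (interaction 0.76, adjusted p = 0.0229), where its mean was 52.0 ± 3.13 CPM with Eth and 37.4 ± 4.81 CPM with Dex. This FGF5 call was lost without siNS Eth replicate 1, siNS Dex replicate 1 or 2, siHP1γ Eth replicate 1 or 3 or siHP1γ Dex replicate 1 (adjusted p from 0.0539 to 0.0981). That of SDC3 differed in siHP1γ cells (-0.92, adjusted p = 0.000549) and in siPRMT5 cells (-0.75, adjusted p = 0.000722). SDC3 was at 56.6 ± 3.57 CPM in siNS Eth and 100.6 ± 3.35 CPM in siNS Dex, and between 38.6 and 61.3 CPM in all 12 libraries of depleted cells. In all, 2 of the 71 genes passed the interaction with HP1γ depletion (2.82%, beside 0.399% of all genes) and 8 that with PRMT5 depletion (11.3%, beside 3.80%). Among the latter were the feedback inhibitor ERRFI1 (0.68, adjusted p = 0.000144) and DUSP6, a phosphatase of ERK (-0.52, adjusted p = 0.000916).

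HP1γ depletion called 24 of the 71 genes with Dex (10 higher, 14 lower; 33.8%, beside 24.0% of all genes) and 31 with Eth (16 higher, 15 lower; 43.7%, beside 31.8%). Of 13 tested genes of the RAS-ERK cascade itself, 5 were called with Dex, 2 higher and 3 lower. Of the adaptors 5 of 14 were called with Dex, with PTPN11, a phosphatase that relays receptor signals, lower (-0.66, adjusted p = 3.99e-06) and the ubiquitin ligase CBLB higher (0.54, adjusted p = 0.000688). Of the other feedback inhibitors 2 of 13 were called with Dex, SPRED3 higher (0.46, adjusted p = 0.00466) and IL17RD lower (-0.73, adjusted p = 8.69e-07). The median log2 fold change of the 71 genes was 0.03 with Dex, beside 0.01 over all genes tested.

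PRMT5 depletion called 47 of the 71 genes with Dex (18 higher, 29 lower; 66.2%, beside 42.4% of all genes) and 43 with Eth (21 higher, 22 lower; 60.6%, beside 42.1%), with medians of -0.03 and -0.02 on the log2 scale. Of the other feedback inhibitors, 12 of 13 were called with Dex (beside the 42.4% of all genes), 7 higher and 5 lower, and 10 of 13 with Eth. RASA2, a protein that switches RAS off, was at 34.1 ± 0.110 CPM in siNS Dex and 80.0 ± 13.9 CPM in siPRMT5 Dex (log2 fold change 1.23, adjusted p = 3.88e-08). SPRY1, the Sprouty relative of SPRY2 and SPRY4, rose by 1.32 with Eth (adjusted p = 5.92e-11). Among the feedback inhibitors called lower were DUSP5 with Dex (log2 fold change -0.55) and ERRFI1 with Eth (-0.56). Of the genes switched on by ERK, 8 of 10 were called with either treatment, 2 higher and 6 lower. ETV1 rose from 75.6 ± 4.20 to 169.5 ± 8.19 CPM with Dex (1.16, adjusted p = 3.52e-11), whereas its relative ETV4 fell from 47.3 ± 4.49 to 19.9 ± 2.05 CPM (log2 fold change -1.24, adjusted p = 4.02e-11).

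PRMT5 depletion with Dex called 9 of the 13 RAS-ERK cascade genes, 4 higher and 5 lower (69.2%, beside 42.4% of all genes). MAPK3, which encodes ERK1, fell from 82.5 ± 3.69 CPM in siNS Dex to 26.1 ± 2.85 CPM (log2 fold change -1.66, adjusted p = 2.14e-12). Of the 14 adaptors, 9 were called with Dex (64.3%, beside 42.4% of all genes). FRS2, the docking protein of FGF receptors, was higher (49.8 ± 3.66 and 75.9 ± 3.93 CPM, log2 fold change 0.61, adjusted p = 1.17e-06) and CRK lower (-1.96, adjusted p = 1.88e-08). Among the 6 tested genes named FGF, FGF1 fell from 8.93 ± 0.916 to 2.52 ± 0.331 CPM with Dex (-1.81, adjusted p = 3.26e-09). FGF14, listed with the ligands by its name alone, rose by 1.85 (adjusted p = 0.00736). Its levels of 0.326 ± 0.206 and 1.12 ± 0.582 CPM are close to the 3-count level. The FGF14 call was lost without siNS Dex replicate 1 (adjusted p = 0.0571) or siPRMT5 Dex replicate 2 (0.0918). Of the 15 heparan sulfate and co-receptor genes tested, 5 were called with Dex (33.3%, beside 42.4% of all genes). SDC3 was lower among them (-1.27, adjusted p = 5.86e-12).

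**Figure D3:**
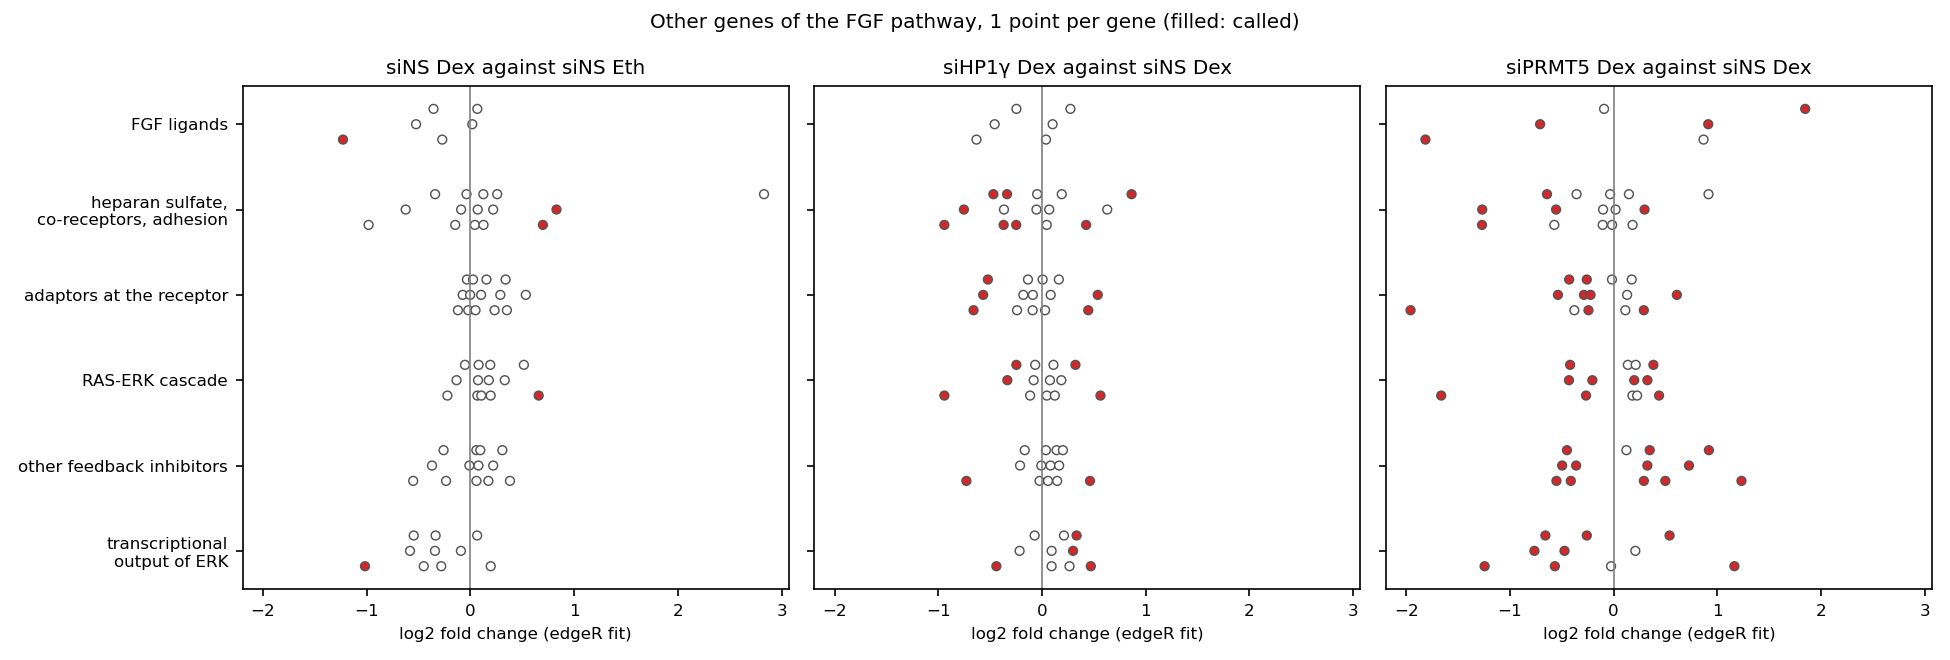
log2 fold changes of the 71 tested genes of the FGF pathway, 1 point per gene and grouped by role on the vertical axis, for Dex in siNS cells and for each depletion with Dex; filled points passed the limits of that comparison and open points did not. Filled points number 5 in the left, 24 in the middle and 47 in the right panel, and in the right panel they lie on both sides of 0 in each role.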

How the data were processed

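The data are RNA-seq libraries of MDA-MB-231 cells, 18 in all, and the condition and replicate were read from the sample titles. Per the labels and the methods, the authors prepared Lexogen libraries, mapped the reads on hg38 with Bowtie2 (2.4.2) and counted them per gene with HTSeq (0.9.1). They deposited whole-number counts per symbol, without normalization. The strand setting and annotation of the counting are not given in the sources used here. A deposited table of the authors' own comparisons (mean counts, log2 fold changes, standard errors and p-values) was not used.

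From the counts, filterByExpr kept 15298 genes, library sizes were scaled by TMM, and a single quasi-likelihood model with 6 condition means was fitted to the 18 libraries (edgeR 4.0.16, R 4.3.3; 12 residual degrees of freedom). P-values were adjusted by the Benjamini-Hochberg method over all genes tested, and the code was tested on simulated data. Two-sided exact permutation tests compared the CPM of 3 against 3 libraries. For the Dex comparisons, an adjusted p under 0.01 was joined here with a fold of at least 1.5. The study gives both values, in different places, and sets the p limit beside a fold of 2, which was run as an alternative. The limit of the depletion comparisons (adjusted p under 0.05) is the study's, and that of the interactions was set to the same value here. The alternatives were other scalings, filters and limits, DESeq2 1.42.0, a replicate block, fits of the compared libraries alone, and each library left out in turn. The members, the pathway list and the tests were chosen with earlier results of these data known. Pathway genes were named by a rule, as the called gene of each role and comparison with the largest change in either direction, and a part of them is given. DUSP6 and ERRFI1 follow it in the interaction. Positions are from GENCODE 44 on hg38 and promoters from RefSeq on GRCh38.p14.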

Additional observations from a re-analysis of the deposited data

How the results depend on the processing

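Over 9 alternative settings and 18 fits that each left out 1 library, no called value of a member changed direction. Of 2086 tested member values recomputed, which leave out FGFRL1 where PRMT5-depleted cells were compared with other cells, 2034 kept their side of the limit, 33 lost a call and 19 gained one, and the cause was not tested. With an adjusted p under 0.05 and no fold limit, the Dex response called 2 members in each of siNS, siHP1γ and siPRMT5 cells, and 22, 14 and 24 genes of the pathway list. With a fold limit of 2 the list gave 2, 0 and 0 genes. Both follow from the limits themselves. Without the filter on low counts, the HP1γ interaction called 1 member, FGFRL1 (-0.52, adjusted p = 0.0134), and 5 genes of the list, FGFR1 in siPRMT5 Dex was at an adjusted p of 0.0577 and FGFR3 in siPRMT5 Eth at 0.0659. DESeq2 gave 0.103 for the latter. FGFRL1 in siHP1γ Eth against siNS Eth passed with library size only (adjusted p = 0.0449), without the filter (0.0107) and with the compared libraries alone (0.00911). Leaving out 1 library gave 3 to 5 members without overlap for Dex in siNS cells and 3 to 5 for siHP1γ against siNS with Dex (fewer libraries overlap less), 2 to 5 members called for siHP1γ with Eth, 3 to 5 for siPRMT5 with Dex, 0 to 1 for the PRMT5 interaction, 3 to 5 pathway genes for Dex in siHP1γ cells (5 without siHP1γ Eth replicate 2) and 1 to 4 for the HP1γ interaction (4 without siNS Eth replicate 2). Libraries of the same replicate number correlated weakly: of 27 same-numbered pairs, 4 were above 0.1 (r from -0.131 to 0.172). Of 18 libraries, 10 were closest to their own number among the 3 numbers, and some would be so without any pairing. Whether the replicate numbers pair the samples was not tested. With the replicate number as a block, PRMT5 depletion with Dex still called 5 members and 48 genes of the list, and no call of a member changed. Low counts limit FGFR2, FGF2 and FGFR3, and the cause of the low counts was not tested. At 10 counts in every library 13007 genes and 7 members remained.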
